A study of Mus musculus with 12 samples.

Results

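The hippocampal transcriptome of DBA/2J (D2) mice was compared with that of C57BL/6J (B6) mice after both strains had received a virus that knocks down Hp1bp3. The comparison used 6 of the 12 mRNA libraries of the study, 3 from D2 knockdown mice (D2 KD) and 3 from B6 knockdown mice (B6 KD), chosen only by their strain and treatment labels. Each library came from the whole hippocampus of 1 male mouse that was injected at 3 to 5 months of age and killed at least 6 weeks later. All 6 mice carried an adeno-associated virus of serotype 9 with a short hairpin RNA against Hp1bp3, delivered to the dorsal hippocampus on both sides. The other 6 libraries came from mice of the same strains that received a scrambled hairpin (D2 Ctrl and B6 Ctrl, 3 each), and they served as the background for the strain difference. The virus was injected into the dorsal hippocampus only, whereas the whole structure was homogenized, so reached and unreached cells were measured together.

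B6 and D2 are inbred strains that differ at many sites in the genome, and they are the parents of the BXD family of recombinant inbred mice. They differ in memory tasks and in the excitability of hippocampal neurons, which rests on potassium channels, glutamate receptors and GABA receptors. Hp1bp3 is a chromatin protein related to the linker histones of the H1 family. Each gene below was measured as the authors' normalized count, which is the RSEM estimate of its reads divided by a size factor of the library. Fold changes are log2 values from edgeR's quasi-likelihood test on the expected counts, given with an approximate standard error (SE), and a gene was called at a Benjamini-Hochberg adjusted p under 0.05 over all genes tested. Positive values mean higher in D2.

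Several libraries stood apart in ways that do not follow strain. Library totals were 21787915 to 39420219 expected counts in B6 KD and 28383140 to 37518043 in D2 KD (18213084 to 37558233 in Ctrl), with no detectable difference between strains (exact 2-sided permutation test, p = 1.0, where 0.1 is the smallest p that 3 against 3 allows). The transcript of transthyretin, Ttr, which the choroid plexus makes in large amounts, was at 3113 normalized counts in B6 KD 1 and 806 in D2 KD 2, against 108899 to 137514 in the other 4 KD libraries. B6 KD 3 held transcripts of the cerebellum. Gabra6, a GABA receptor subunit of cerebellar granule cells, stood at 415 in B6 KD 3 and at no more than 2.62 in any of the other 11 libraries. Of 12 cerebellar genes, listed after these libraries had been seen, 11 were highest in B6 KD 3, and their summed count was 9234 there against 1326 to 3071 elsewhere.

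Hp1bp3 itself (chr4:138216296-138244683 in GENCODE M21, GRCm38) had 5539, 5429 and 7633 normalized counts in B6 KD and 5337, 4878 and 6941 in D2 KD. The strains overlapped, the D2 mean was 92.2% of the B6 mean, and no difference was found (log2 fold change -0.14, SE 0.15, adjusted p = 0.64 in the fit; exact 2-sided permutation p = 0.5). In the Ctrl libraries the gene ranged from 8826 to 9372 in B6 and from 6504 to 7001 in D2. All 3 B6 KD libraries were below the B6 Ctrl range. The library labelled D2 KD 3, at 6941, lay inside the D2 Ctrl range, whereas D2 KD 1 and D2 KD 2 lay below it. The mean was 6200 in B6 KD and 5719 in D2 KD, so the fall from Ctrl was larger in B6 than in D2. Whether this unequal fall bears on the strain differences below was not tested.

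Of 15854 genes tested, 2374 were called between the strains under knockdown, which is 15% of the genes, with 939 (5.92%) higher and 1435 (9.05%) lower in D2. The difference was at least 2-fold in 1209 of them (7.63% of genes tested), 462 higher and 747 lower. An unadjusted p under 0.05 was reached by 4168 genes (26.3%), and the 3 libraries of each strain did not overlap for 4564 (28.8%), with D2 above in 2226 (14.0%) and below in 2338 (14.7%). Without B6 KD 3 the count was 2585, of which 2018 were among the 2374, and without the library labelled D2 KD 3 it was 1878, of which 1785 were. A fit to the 6 KD libraries alone called 1541. Between libraries of the same strain, Spearman's rho over the expression of all tested genes was 0.973 to 0.991, and between strains it was 0.947 to 0.960.

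Most of the strain difference was also present without knockdown. In the Ctrl libraries, which share no mouse with the KD libraries, 2217 genes (14.0%) were called between the strains, 829 (5.23%) higher and 1388 (8.75%) lower in D2. Of the 2374 genes called under knockdown, 2293 differed in the same direction in Ctrl, and 1725 were also called there in that direction, which is 72.7% of the KD calls and 77.8% of the Ctrl calls. Across all tested genes the log2 fold changes of the 2 comparisons had a Pearson r of 0.85 and a Spearman rho of 0.50. These are descriptions across genes, which are not independent. Both comparisons also came from 1 fit with a shared estimate of each gene's spread, so the 2 sets of calls are not independent either. Only Aqp4 and Apol9b were called in both with opposite signs. The test of the difference itself, the strain by treatment interaction, called 0 genes by edgeR, where 937 genes (5.91%) had an unadjusted p under 0.05, 600 (3.78%) with the D2 minus B6 difference lower in KD and 337 (2.13%) with it higher, and it called 12 by DESeq2. By edgeR, then, no gene called under knockdown and not in Ctrl was shown to differ between the treatments.

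**Figure D1:**
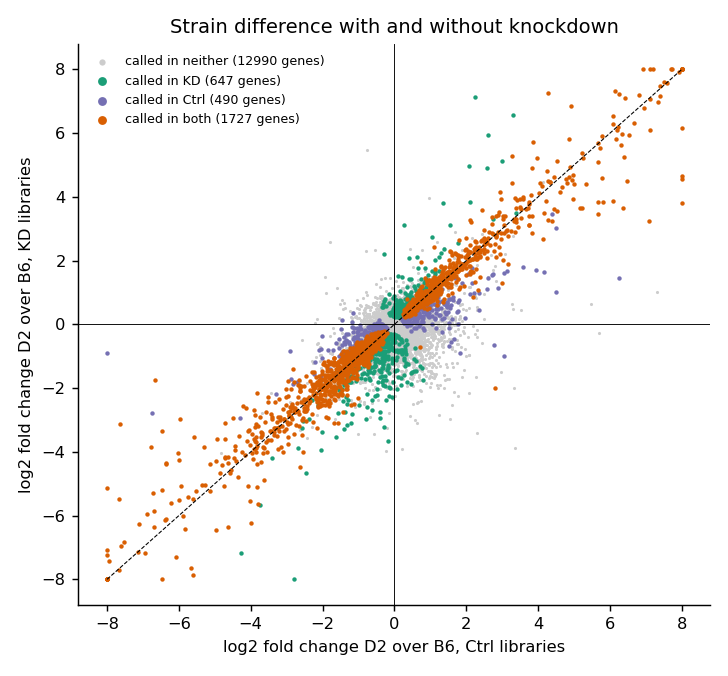
The log2 fold change of D2 over B6 in the KD libraries (vertical) is plotted against that in the Ctrl libraries (horizontal) for 15854 genes, coloured by the comparison in which a gene was called, with values beyond 8 drawn at the edge. Of the genes called in both, all but Aqp4 and Apol9b have the same sign on both axes (dashed line, equality), and 647 genes were called in KD alone.

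Potassium channels set the resting potential and the firing of neurons, and 11 of the 44 tested members of the list were called, 7 higher and 4 lower in D2 (25%, against 15% of all genes). The median log2 fold change of the 44 was 0.12, against 0.00 over all genes. Kcnq3 (chr15:65986387-66286642), a subunit of the M-channel, whose slow current limits repetitive firing, had 4159, 3887 and 2823 normalized counts in B6 KD and 138, 137 and 344 in D2 KD. The strains were far apart in each library, by 17.5-fold in the means (log2 fold change -4.15, SE 0.46, edgeR adjusted p = 9.16e-05). Kcnh7, an ether-a-go-go related channel, was at 1336, 1356 and 689 in B6 KD and at 39, 45 and 92.8 in D2 KD. Kcnj3, a subunit of G-protein gated inward rectifiers, was 3.69-fold lower.

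Other potassium channels went the opposite way. Kcna2, an axonal channel of the Shaker family, had 668, 539 and 321 normalized counts in B6 KD and 6489, 7745 and 8646 in D2 KD, a 15-fold difference with no overlap (3.89, SE 0.38, adjusted p = 3.64e-05). The small-conductance channel Kcnn3 was 5.85-fold higher in D2. Kcnj11, the pore of ATP-sensitive channels, was higher by 2.72-fold and Kcnma1, the large-conductance calcium-activated channel, by 2.07-fold. When each of the 12 libraries was omitted in turn, the call of Kcnn1 (0.42) was kept in 8 of the 12 fits and those of the other 10 in all 12. Of the 11, 9 were also called in the same direction in Ctrl.

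Glutamate receptors and their auxiliary subunits carry fast excitation, and 8 of 37 tested members were called, 3 higher and 5 lower (21.6%, against 15% of all genes). Grin2b (chr6:135713233-136173511), the NMDA receptor subunit that is prominent in early life, had 18683, 14497 and 12823 normalized counts in B6 KD and 1666, 987 and 1906 in D2 KD, 10.1-fold fewer (-3.36, SE 0.27, adjusted p = 7.89e-06). The gap was also present in Ctrl, at a mean of 21267 in B6 against 1268 in D2. Alignment was strain-specific in both treatments, so its presence in Ctrl does not tell a transcript difference from a reference difference. The AMPA receptor auxiliary subunits Cacng7 (-1.55, SE 0.11) and Cacng4 (-1.92, SE 0.18) were also lower. The kainate receptor subunits Grik1 (0.84, SE 0.16) and Grik3 (0.80, SE 0.16) were higher. Grik3 had 1734, 1453 and 1442 counts in B6 KD and 2621, 2887 and 2686 in D2 KD, whereas the Ctrl means were 2965 in B6 and 2456 in D2. Its interaction had an unadjusted p of 0.000585 in edgeR, which did not pass adjustment (adjusted p = 0.82), and it was called by DESeq2 (adjusted p = 0.0236).

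GABA-A receptors carry fast inhibition, and 3 of 15 tested subunits were called (20%, against 15% of all genes). Gabra2 was at 2270, 2240 and 1518 normalized counts in B6 KD and at 5374, 6201 and 5468 in D2 KD, so that each D2 library was above each B6 library (1.48, SE 0.15, adjusted p = 5.54e-05). C57BL/6J mice are known to carry a deletion in an intron of this gene that lowers its expression. Gabrg3 was at 692, 563 and 519 in B6 KD and at 26.4, 20.5 and 37.3 in D2 KD, a 21.1-fold difference (-4.42, SE 0.24, adjusted p = 3.26e-07). Gabrb1 was lower by less (-0.65, SE 0.15). All 3 were called in the same direction in Ctrl. Among 24 scaffold and matrix genes of the synapse, 4 were called (16.7%, near the 15% of all genes). The count was 0 without D2 KD 1, 1 without B6 KD 1, B6 KD 2, B6 KD 3, D2 KD 2 or D2 Ctrl 1, and 2 without the library labelled D2 KD 3. The scaffold Dlg2 had 7031, 5780 and 3516 counts in B6 KD and 10650, 9880 and 13195 in D2 KD (1.03, SE 0.31, adjusted p = 0.0451), a call kept in 4 of the 12 fits with 1 library left out. Hapln4 of the perineuronal matrix (0.78) and the junctophilin Jph3 (0.33) were higher and Shank2 (-0.42) was lower, with calls kept in 8, 1 and 5 of the 12.

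**Figure D2:**
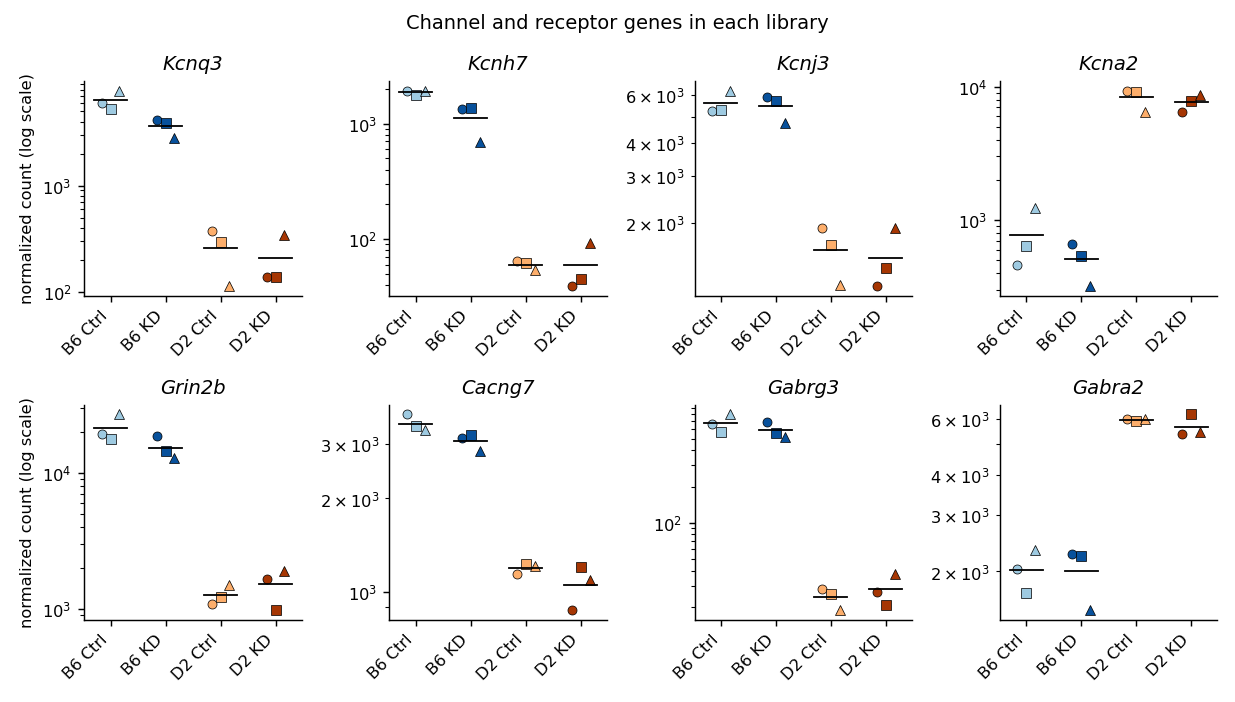
Normalized counts on a log scale of 8 channel and receptor genes in the 12 libraries, by group, with circle, square and triangle for replicates 1 to 3 and a line at the group mean. In each panel the 3 D2 KD libraries lie wholly above or wholly below the 3 B6 KD libraries, and the D2 and B6 Ctrl libraries differ in the same direction.

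Interferon-stimulated genes encode antiviral proteins and are switched on together by transcription factors that include Stat2 and Irf9. Of 41 tested members, 40 had lower estimates in D2 KD than in B6 KD, with a median log2 fold change of -1.37, and 11 were called, all lower (26.8%, against 9.05% of all genes called lower). The immunity-related GTPase Irgm2 had 1132, 1662 and 573 normalized counts in B6 KD and 275, 436 and 164 in D2 KD. The guanylate-binding protein Gbp3 had 2323, 2978 and 1385 in B6 KD and 712, 942 and 201 in D2 KD. The factor Stat2 had 2978, 3369 and 1983 against 1832, 1871 and 1146. For these 3 genes each D2 library was below each B6 library, and the log2 fold changes were -1.95 (SE 0.47, adjusted p = 0.0156), -1.86 (SE 0.52, adjusted p = 0.0327) and -0.80 (SE 0.22, adjusted p = 0.0291). Those called included Gbp7, the kinase Eif2ak2, the RNA sensor Ifih1, Igtp, Irgm1, Irf9 and Parp9. Across the 11, the call was kept in 2 to 9 (Irgm2 and Stat2) of the 12 fits with 1 library omitted. Irf7, Isg15 and Ifit1 had log2 fold changes of -1.95, -1.83 and -1.69 and were not called (adjusted p = 0.0592, 0.069 and 0.0833).

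The interferon response varied widely within each strain. As the mean over the list of log2(TMM CPM + 1), it was 5.38, 5.82 and 4.34 in B6 KD and 4.08, 4.55 and 2.82 in D2 KD. The strains overlapped, since D2 KD 2 lay above B6 KD 3, the library with cerebellar transcripts. The library labelled D2 KD 3 was lowest, inside the range of the D2 Ctrl libraries (2.51 to 3.62). Those were at 2.62, 2.51 and 3.62, so of them only D2 Ctrl 3 was above the library labelled D2 KD 3. B6 Ctrl libraries were at 2.28 to 2.62. The number of members called was 6 to 14 when 1 Ctrl library was omitted. It was 20 without B6 KD 3, 10 without D2 KD 2, 2 without D2 KD 1, 1 without B6 KD 1, and 0 without either B6 KD 2 or the library labelled D2 KD 3. The fit to the 6 KD libraries alone also called 0, with an unadjusted p under 0.05 for 22, whereas DESeq2 called 18 and limma-voom 16. In Ctrl the same 41 genes had a median log2 fold change of 0.74 and edgeR called 0, with an unadjusted p under 0.05 for 3. By list level, only D2 Ctrl 3 of the D2 Ctrl libraries lay above the B6 Ctrl libraries. The interaction had an unadjusted p under 0.05 for 34 of the 41, all with the D2 minus B6 difference lower in KD than in Ctrl, where 3.78% of all genes did so. None passed adjustment in edgeR, and DESeq2 called Gbp7.

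The promoters of interferon-stimulated genes often hold a response element that a complex with Stat2 and Irf9 binds. The letters GAAA, any pair of bases and GAAA again were searched on both strands in RefSeq promoters of GRCm38.p6, from 250 bases before to 50 bases after each start. They were present in 19 of the 29 tested list members that had a promoter in the table (65.5%), against 3.73% of all tested genes with one. The list holds genes known for their response to interferon, so this share does not bear on the strain difference. Among genes called lower in D2 KD, which include members of the list with a match, the share was 5.82%, and among those called higher it was 3.54%. The 250 bases before the start are shown for 4 called members that hold a match there, with the matched letters, or their reverse complement, in capitals.
Irgm2, chr11:58214727-58214976, plus strand: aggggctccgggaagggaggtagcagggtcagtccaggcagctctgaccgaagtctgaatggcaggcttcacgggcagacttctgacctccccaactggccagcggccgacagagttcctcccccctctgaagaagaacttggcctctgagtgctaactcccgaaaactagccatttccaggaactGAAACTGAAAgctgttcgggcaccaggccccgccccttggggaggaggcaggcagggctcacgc
Gbp7, chr3:142530086-142530335, plus strand: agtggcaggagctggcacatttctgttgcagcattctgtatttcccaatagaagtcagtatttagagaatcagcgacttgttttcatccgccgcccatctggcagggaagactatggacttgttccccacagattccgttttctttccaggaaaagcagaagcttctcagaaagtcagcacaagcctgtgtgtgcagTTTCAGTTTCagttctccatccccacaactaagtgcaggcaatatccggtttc
Gbp3, chr3:142559794-142560043, plus strand: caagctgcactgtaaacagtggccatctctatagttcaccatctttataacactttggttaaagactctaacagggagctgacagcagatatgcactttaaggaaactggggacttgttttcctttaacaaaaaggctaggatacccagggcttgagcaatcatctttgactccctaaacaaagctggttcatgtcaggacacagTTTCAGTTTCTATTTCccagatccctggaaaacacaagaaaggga
Stat2, chr10:128270248-128270497, plus strand: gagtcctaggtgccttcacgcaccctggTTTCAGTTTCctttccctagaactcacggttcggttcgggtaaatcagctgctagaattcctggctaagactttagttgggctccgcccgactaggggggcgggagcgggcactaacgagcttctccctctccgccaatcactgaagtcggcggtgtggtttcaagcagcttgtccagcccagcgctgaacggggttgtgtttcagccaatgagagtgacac
Irgm2 and Gbp7 hold 1 match each, Gbp3 holds 2 that overlap, and Stat2 holds 1 farther from the start. A match describes the letters and does not show that the factor binds.

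**Figure D3:**
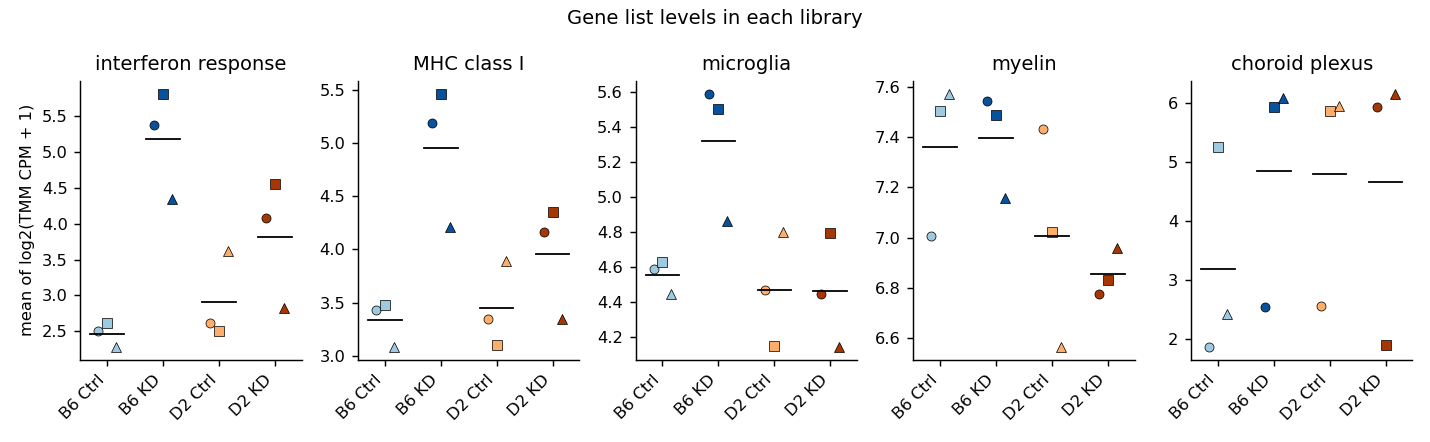
Mean of log2(TMM CPM + 1) over the members of 5 gene lists in each of the 12 libraries, by group, with circle, square and triangle for replicates 1 to 3 and a line at the group mean. Interferon levels run from 4.34 to 5.82 in B6 KD and from 2.82 to 4.55 in D2 KD, whereas choroid levels fall into high and low libraries in all 4 groups.

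MHC class I molecules present peptides on the cell surface, and 4 of 20 tested genes of this pathway were called, all lower in D2 KD (20%, where 9.05% of all genes were called lower). H2-Q7 had 1405, 2052 and 376 normalized counts in B6 KD and 94.9, 107 and 37.3 in D2 KD (-3.99, SE 0.68, adjusted p = 0.00201). H2-Q6 had 743, 1114 and 265 in B6 KD and 0 in every D2 KD library, which is at least 253-fold higher in B6 against a floor of 3 counts per library. The 0 did not hold in Ctrl, where the D2 libraries had 42 counts of H2-Q6 together and the B6 mean was 105 normalized counts. H2-T22 (-2.03) and the peptide transporter Tap2 (-0.76) were lower too, Tap2 with a call kept in 3 of the 12 fits. Without B6 KD 3, 9 members were called, and without the library labelled D2 KD 3, 3 were. These H2 genes share 39.3% to 67.4% of their 31-base words with other genes, and the strains carry different MHC haplotypes, so their levels are uncertain. Of 9 class II genes 3 were called lower and 1 higher (44.4%, against 15% of all genes). H2-DMb1, H2-DMb2 and H2-Eb1 were lower at log2 fold changes of -1.95, -2.15 and -2.52. H2-Ea-ps, named for the class II alpha chain that B6 mice do not express, had 0 counts in each B6 library and a mean of 39.8 in D2 KD, at least 13.7-fold higher.

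Microglia, the resident macrophages of the brain, had lower transcript levels in D2 KD. All 20 tested marker genes had negative estimates, with a median log2 fold change of -0.79, and 11 were called, where 9.05% of all genes were called lower. Fewer microglia and less RNA per microglial cell cannot be told apart in whole tissue. Fcrls, a microglial surface receptor, had 1346, 1052 and 968 normalized counts in B6 KD and 97.0, 197 and 110 in D2 KD (-3.07, SE 0.28, adjusted p = 1.76e-05). Siglech had 725, 550 and 410 against 272, 271 and 276, and Tmem119 had 1024, 1093 and 904 against 692, 680 and 484. In both genes each D2 library lay below each B6 library. The lysosomal Cd68 (-1.82), the signalling adaptor Fcer1g (-1.37) and Trem2 (-1.44) were lower, whereas Cx3cr1 (-0.54, adjusted p = 0.0966) and P2ry12 (-0.15, adjusted p = 0.72) were not called. The count of members called was 14 without B6 KD 3, 13 without D2 KD 2, 4 without either B6 KD 1 or D2 KD 1, and 3 without either B6 KD 2 or the library labelled D2 KD 3. The fit to the 6 KD libraries alone called 5 members, and the test against a fold of 1.5 called 2. The list level was 4.86 to 5.59 in B6 KD and 4.15 to 4.80 in D2 KD, without overlap. Its exact 2-sided permutation p was 0.1, the smallest that 3 against 3 allows. In Ctrl only Fcrls was called, also lower (-2.26), and the median was 0.17. Of 22 complement genes 4 were called, all lower (18.2%, where 9.05% of all genes were called lower). C1qb had 3677, 3704 and 2087 counts in B6 KD and 1062, 1835 and 650 in D2 KD (-1.43, SE 0.38, adjusted p = 0.0262), with the call kept in 8 of the 12 fits. Without D2 KD 1, 2 complement genes were called, and without B6 Ctrl 2, 6 were.

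Aqp4, the water channel of astrocyte endfeet, was 1 of 2 genes with opposite calls in the 2 treatments. It had 10677, 11966 and 12428 normalized counts in B6 KD and 7920, 8038 and 5735 in D2 KD (-0.71, SE 0.19, adjusted p = 0.0289). In Ctrl it had 4548, 5196 and 5748 in B6 and 8065, 6424 and 10836 in D2 (0.71, adjusted p = 0.0297). The strains did not overlap in either treatment. The interaction was -1.42 on the log2 scale (SE 0.27) with an adjusted p of 0.82 in edgeR and 0.00458 in DESeq2. The KD call was lost without B6 KD 2, B6 KD 3, D2 KD 1 or the library labelled D2 KD 3, where adjusted p-values ran up to 0.106. It was the only 1 of 18 astrocyte markers to be called (5.56%, against 15% of all genes), and the list median was 0.00. Neither choroid plexus (18 genes), meninges (10) nor ependyma (8) had a member called by edgeR or DESeq2 in the fit without covariates, where 1 ependymal gene had an unadjusted p under 0.05. With the choroid level as a covariate, 1 choroid and 1 ependymal gene were called.

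Among myelin genes 2 of 15 were called, both lower (13.3%, where 15% of all genes were called and 9.05% were called lower). Mobp, a structural protein of compact myelin, had 23240, 20895 and 18467 normalized counts in B6 KD and 2906, 3158 and 4268 in D2 KD, 6.06-fold fewer (-2.62, SE 0.29, adjusted p = 8.56e-05). The list level was 7.16 to 7.55 in B6 KD and 6.78 to 6.96 in D2 KD, without overlap. Mobp was also low in D2 Ctrl, at a mean of 4500 in D2 against 25872 in B6. Of the oligodendrocyte precursor list Sox10 was called (-0.59), in 6 of the 12 fits, which is 12.5% of the tested members against 15% of all genes.

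**Figure D4:**
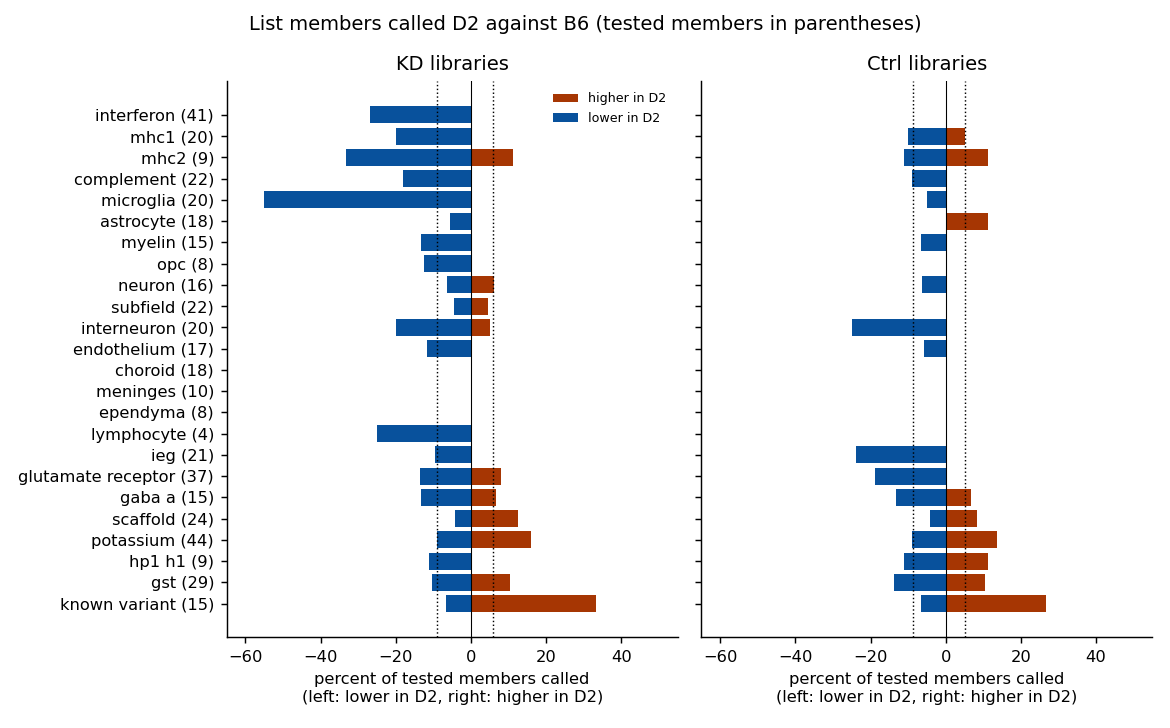
Share of the tested members of 24 gene lists that were called higher (right) or lower (left) in D2, in the KD libraries and in the Ctrl libraries, with dotted lines at the shares over all 15854 genes. Interferon and microglia members were called lower under knockdown in 11 of 41 and 11 of 20 cases, against 0 and 1 in Ctrl.

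Interneurons of the hippocampus are known by the peptides and enzymes they make, and 5 of 20 such markers were called (25%, against 15% of all genes). The count was 2 with the 6 KD libraries alone and 3 without B6 KD 1, B6 KD 2 or D2 KD 1. Nos1, the neuronal nitric oxide synthase, had 5229, 5162 and 5183 normalized counts in B6 KD and 2865, 3003 and 2435 in D2 KD (-0.93, SE 0.10, adjusted p = 8.34e-05). Pdyn, the prodynorphin gene, which granule cells express as well, had 364, 347 and 296 against 79.1, 82.9 and 57.4 (-2.21, SE 0.28). Adarb2 (-0.86) and Cort (-1.39) were lower and Vip (0.74) was higher, with calls kept in 10, 4 and 11 of the 12 fits. The common markers Sst and Pvalb had estimates of -0.07 and 0.00 and were not called. Of 22 genes in the subfield list 9.09% were called, against 15% of all genes. Prox1, a transcription factor of dentate granule cells, had 2617, 2033 and 2974 counts in B6 KD and 470, 212 and 1079 in D2 KD (-2.14, SE 0.63, adjusted p = 0.0428), a call kept in 3 of the 12. Rgs14 of the CA2 field was higher (0.34), also in 3. Of 16 general neuronal markers (12.5% called, against 15% of all genes), Eno2 (0.26) was higher and Nefl (-0.53) lower, with calls kept in 6 and 11. Without B6 KD 3, 4 of the 16 were called, and without the library labelled D2 KD 3 edgeR called 0. Among 21 immediate early genes (9.52% called, against 15% of all genes), Nr4a3 (-2.16, SE 0.45) and Ptgs2 (-1.33, SE 0.35) were lower, kept in 12 and 9. The median of these 21 was -0.36 in KD and -0.70 in Ctrl. In Ctrl 5 of them were called lower, where 8.75% of all genes were, and 1 was called in both. Of 17 endothelial and mural genes (11.8% called, against 15% of all genes), Rgs5 (-1.21) and Flt1 (-0.66) were lower, kept in 12 and 5. All 17 had negative estimates, with a median of -0.21, and the list level was 5.29 to 5.48 in B6 KD and 4.92 to 5.18 in D2 KD, without overlap. Of 4 lymphocyte genes that could be tested (25% called, against 15% of all genes) Cd79a was lower (-1.63), kept in 4, at 32.2, 14.4 and 20.1 counts against 4.22, 8.68 and 8.61. Without B6 KD 3, 3 of the 4 were called.

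Of 9 genes of heterochromatin protein 1 and the linker histones, only Cbx1 was called (11.1%, against 15% of all genes). Heterochromatin protein 1 is a chromodomain protein, whereas Hp1bp3 resembles the linker histones. Cbx1, heterochromatin protein 1 beta, had 1504, 1344 and 1469 normalized counts in B6 KD and 596, 666 and 676 in D2 KD (-1.18, SE 0.10, adjusted p = 1.33e-05), and it was lower in D2 Ctrl as well (-1.06). Cbx3 and Cbx5, its paralogs, had estimates of -0.03 and 0.09.

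Genes of glutathione and methylglyoxal handling included 6 called of 29 (20.7%, against 15% of all genes). The count was 4 without B6 KD 2. Glo1, which detoxifies methylglyoxal and is duplicated in several inbred strains, had 3530, 3470 and 3724 normalized counts in B6 KD and 7919, 7393 and 7496 in D2 KD, 2.13-fold more (1.07, SE 0.08, adjusted p = 2.61e-06). Gclm, the modifier subunit of glutathione synthesis, was 2.62-fold lower (-1.41, SE 0.09). Gstz1 (0.45) and Gsr (0.52) were higher, and Gsto1 (-0.48) and the scarce Mgst2 (-2.80) were lower. The calls of Gsr and Mgst2 were kept in 9 and 7 of the 12 fits. Among 15 tested genes known for variants between inbred strains, Glo1 and Gabra2 included, 6 were called (40%, against 15% of all genes) and 9 were not. These genes were listed because variants in them were known, so the share is not a test of the list. Alad, a heme synthesis enzyme with extra copies in DBA/2J, was 4.59-fold higher (370, 414 and 457 counts in B6 KD, and 1964, 1576 and 2154 in D2 KD). Gpnmb, in which DBA/2J carries a nonsense mutation, had 2769, 1868 and 982 counts in B6 KD and 31.6, 24.5 and 20.1 in D2 KD, 73.8-fold fewer (-6.22, SE 0.73). Its B6 Ctrl mean was 491. Nnt, in which C57BL/6J carries a deletion, was higher in D2 (0.45), with the call kept in 3 of the 12 fits, and Entpd4 (0.24) was higher, kept in 9.

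The graded genes with the widest gaps, each with at least 10 counts in all 6 libraries, differed by more than 20-fold. Those lower in D2 KD included Gpnmb, the amino acid transporter Slc38a6 (-5.48), the kinase Uhmk1 (-5.06), the chaperone Dnajb14 (-5.06), Psg16 (-4.66), Pcdhga9 (-4.56), Gabrg3, the neuregulin receptor Erbb4 (-4.37) and Tmem245 (-4.35). Those higher were Amd2 (7.58), Nkain2 (6.28), Tmem181c-ps (5.90), cyclophilin A, Ppia (5.39), Tmem181b-ps (5.24), the scavenger receptor Stab2 (5.10), the Wnt receptor Fzd3 (4.68), Ppp2r3d (4.52), Ccdc82 (4.47) and Zfp871 (4.45). Fzd3 (chr14:65192449-65262463) had 124, 120 and 129 normalized counts in B6 KD and 3224, 3306 and 3174 in D2 KD, so the spread within a strain was small beside the 26.0-fold difference. Erbb4 had 1270, 1391 and 928 against 54.8, 45 and 76.5. The genes named here were all called in the same direction in Ctrl and kept their call in all 12 fits with 1 library left out. In the deposited symbols, Pcdhga9 carries the identifier that GENCODE M21 names Pcdhgc4.

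Among abundant genes with at least a 2-fold difference, Prkcb, protein kinase C beta, was 3.56-fold higher (8307, 7093 and 5361 counts in B6 KD, and 20471, 22583 and 30764 in D2 KD) and Pgm2l1 was 2.08-fold higher. The kinetochore gene Zwint, which neurons also express, was 2.09-fold lower. The neuronal pentraxin receptor Nptxr had 35495, 28405 and 59326 counts in B6 KD and 15513, 6501 and 5711 in D2 KD (-2.18, SE 0.38, adjusted p = 0.00212). Its neighbour Npcd, which overlaps it on chromosome 15 and shares 96.3% of its 31-base words with other genes, was at 0 in every B6 library and at 49554, 31253 and 29551 in D2 KD. The 2 genes summed to 41075 counts in B6 KD and 46028 in D2 KD, a log2 ratio of 0.16.

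All-or-none differences, with no more than 3 counts in each KD library of 1 strain and a mean of at least 100 in the other, were found for 22 genes present in D2 and 10 present in B6. The 10 include the cerebellar gene Pcp2, at 9.3, 7.9 and 291 counts in B6 KD, which reached the mean of 100 only through B6 KD 3. The highest in D2 were 2900097C17Rik, at least 24460-fold higher, Npcd (at least 12690-fold), Gm20594 (at least 2000-fold), Oaz1-ps (a ratio of 4870, 95% counting interval 1348 to 40210) and Atp5g2 (at least 817-fold), where a bound assumes 3 counts per library in B6. Those in B6 were Hsd3b2 (a ratio of 6842, 1228 to 270200), H2-Q6, Btg3 (at least 185-fold), Gm20878 (at least 102-fold) and Prl8a1 (at least 92.9-fold). The leading gene, 2900097C17Rik, had no position or transcript sequence in GENCODE M21. Gm20594 shared 10.0% of its words with other genes, and the closest was the mitochondrial ribosomal RNA gene mt-Rnr2. Of the 29 with transcript sequence in GENCODE M21, 24 shared 25% or more of their words with other genes. Their median was 75.0%, against 1.39% over all tested genes. Partners moved the opposite way in several cases. Oaz1-ps and its parent Oaz1, which encodes antizyme, a regulator of polyamine synthesis, summed to 5472 counts in B6 KD and 5528 in D2 KD. Btg3 and Gm7334 summed to 583 and 561. Amd2 and Amd1, whose product makes the aminopropyl donor for polyamines, summed to 5128 and 6662, with Amd2 at 36.5, 28.8 and 31.9 in B6 KD and 6629, 6010 and 6509 in D2 KD. In other cases the shift did not cancel. The log2 ratio of the D2 KD to the B6 KD sum was -6.82 for Hsd3b2 and Hsd3b3. It was -0.81 for Gm20878 and Ccl27a, and -0.64 for H2-Q6 and H2-Q4.

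The reads of each mouse were aligned to the genome of its own strain. A strain difference in a transcript and a difference between the 2 reference genomes and their annotations therefore cannot be told apart in these values, also for genes with little shared sequence. The share of genes called rose with shared sequence, from 11.2% of 7207 genes with under 1% of their words shared to 35.1% of 573 genes with 50% or more. In Ctrl it went from 10.2% to 33.0%. Of genes beyond 16-fold, 31 were in the first group and 60 in the last. Among the 10771 genes with under 5% shared, 1294 were called (12.0%), 461 higher and 833 lower, and 67.6% of them were also called in that direction in Ctrl. Processed and other pseudogenes were called in 67 of 114 cases, 57 of them higher in D2, against 14.0% of protein-coding genes.

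**Figure D5:**
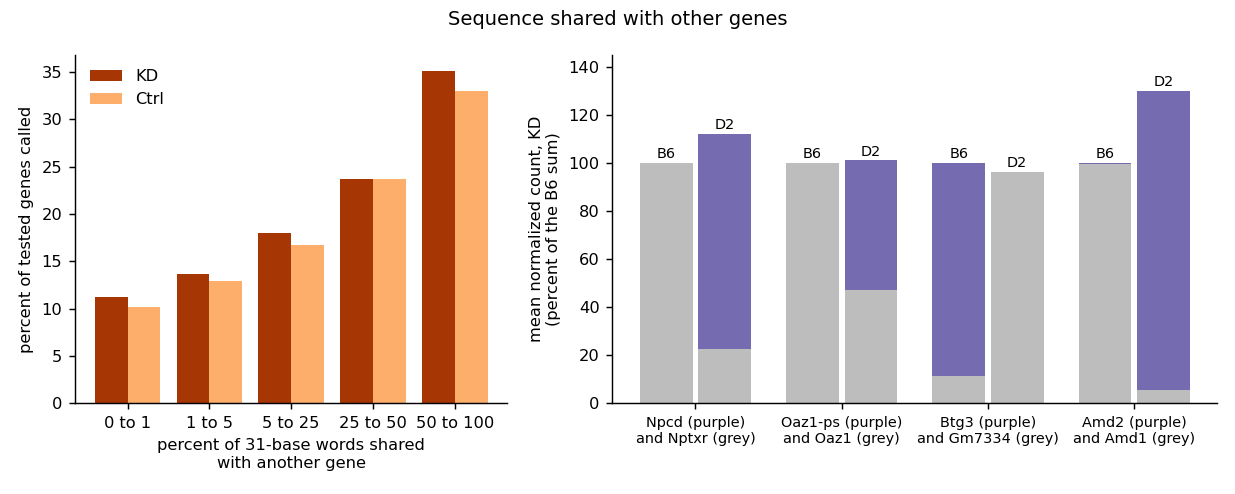
Left, percent of tested genes called between the strains by the percent of a gene's 31-base words that occur in another gene, in KD and Ctrl. Right, mean normalized counts in B6 KD and D2 KD of 4 genes (purple) stacked on the gene that shares most words with each (grey), as percent of the summed B6 count. The split between partners differs, with log2 ratios of the D2 to the B6 sum from -0.05 (Btg3) to 0.38 (Amd2). Pairs whose sums differ more, such as Hsd3b2 and Hsd3b3, are not drawn.

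Called genes lay on every chromosome. On the autosomes the share ran from 11.9% of the tested genes on chromosome 10 to 17.9% on chromosomes 2 and 17, on the X chromosome it was 13.7%, and on the Y chromosome 2 of 6 tested genes were called. By gene span, 16.5% of 3951 genes under 10 kilobases were called, 12.8% of 1780 genes of 100 to 300 kilobases and 17.4% of 529 longer ones. The 5 genes with the smallest interaction p were 1700110I01Rik, Snurf, Aqp4, Flrt1 and Apol9b. Snurf, which lies in the imprinted Prader-Willi region, had 471, 500 and 500 normalized counts in B6 KD and 1856, 1623 and 2320 in D2 KD (1.96, SE 0.15), and its Ctrl difference was 0.74. The adhesion molecule Flrt1 had 876, 849 and 660 in B6 KD and 1222, 1162 and 1184 in D2 KD (0.56, SE 0.11), against -0.24 in Ctrl, where it was not called. 1700110I01Rik was lower in both (-3.35 in KD and -6.48 in Ctrl). None of the 5 passed adjustment in edgeR (adjusted p = 0.82 each). By DESeq2 the interaction was called for Snurf, Aqp4, Flrt1 and Apol9b, and also for Serpina3n, Slfn8, Baz1a, Galnt4, Gm12185 and Niacr1, besides Gbp7 and Grik3.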

How the data were processed

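Poly(A) RNA of 12 whole hippocampi, 3 mice per strain and treatment, was sequenced, and 2 tables of the whole series were used. Per the labels and the methods of the study, the authors aligned reads to a strain-specific genome with Bowtie2 2.2.0 and deposited expected counts per gene made by RSEM 1.2.12, without normalization, for 22236 genes. The builds named in the submitters' processing notes are GRCm38 and mm10. The second table holds coverage per gene as deposited by the authors, namely the same counts with decimals dropped, divided by DESeq2 size factors, and whole reads were recovered for 100.0% of its values within 0.01. It is printed as normalized counts.

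Groups were taken from the labels. The expected counts were rounded, filtered with filterByExpr to 15854 genes, scaled by TMM and fitted with edgeR 4.0.16 (glmQLFit, robust, R 4.3.3) over all 12 libraries in 4 groups. The contrasts were D2 minus B6 in KD, D2 minus B6 in Ctrl, and their difference. The standard error was taken as the absolute log2 fold change over the root of the F statistic. DESeq2 1.42.0, limma-voom (limma 3.58.1), other scalings, filters, covariates and samples were alternatives. Single values were compared by exact 2-sided permutation. In simulated KD counts over 15738 genes the fit recovered 71% of 100 genes changed 2-fold and 97% of 100 changed 4-fold, with 7 false calls. The changed genes were chosen above a minimum count. The simulated spread followed the fitted trend, with no spread particular to a gene, no other strain difference and no deviant library. These shares may therefore not hold for the real libraries. P-values of the fits over all 12 libraries rest on the spread between 3 mice per group in all 4 groups, moderated across genes. They do not measure the spread of the 2 compared groups alone.

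Members and lists were chosen with earlier results of these data known. The genes named were all-or-none genes of the KD libraries (the 5 highest per direction) and graded genes (10 per direction, predicted genes left out). Added to these were abundant genes (5 per direction), the 5 smallest interaction p-values, up to 6 called members of each of 24 lists, and Hp1bp3. Some genes that this rule names are not reported here. Other genes were named after their values were seen. Positions, transcripts and 31-base words came from GENCODE M21 (GRCm38), which gave a position to 15768 of the tested genes, and promoters from RefSeq. Counting intervals and floors cover counting error only.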

Additional observations from a re-analysis of the deposited data

Results flagged for a closer look

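The strain difference went in opposite directions under knockdown and in Ctrl, without overlap of the libraries in either, for 6 genes that the text names or the lists hold. Over all tested genes 44 (0.278%) did so. The interaction did not pass adjustment in edgeR for any of the 6 (adjusted p = 0.82 each). As D2 minus B6 in KD less D2 minus B6 in Ctrl on the log2 scale, it was -4.80 (SE 0.97) for Apol9b, an apolipoprotein L gene, -1.42 (SE 0.27) for Aqp4, -2.15 (SE 0.51) for Gbp7, -1.74 (SE 0.44) for Eif2ak2, -0.94 (SE 0.26) for the peptide-trimming protease Erap1, and -2.96 (SE 0.91) for Irf7. By DESeq2 the adjusted p was 0.0236 for Apol9b, 0.00458 for Aqp4 and 0.0368 for Gbp7, against 0.098 for Eif2ak2, 0.259 for Erap1 and 0.294 for Irf7. Apol9b had 69.5, 181 and 39.4 normalized counts in B6 KD, 27.4, 28.4 and 14.3 in D2 KD, and means of 1.51 in B6 Ctrl and 11.3 in D2 Ctrl. Its KD call (-2.01, edgeR adjusted p = 0.0284) was lost without B6 KD 2 (adjusted p = 0.133) and without any of the 3 D2 KD libraries. It shares 64.9% of its words with other genes.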

How the results depend on the processing

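The KD count of 2374 genes became 1541 with the 6 KD libraries alone and 1000 when tested against a fold of 1.5, and it lay between 1824 and 2585 with 1 library omitted. Other settings gave 2164 (library total as covariate) to 3010 (DESeq2). The Ctrl count lay between 1660 and 2447 with 1 library omitted. The interaction count was 0 in edgeR, also with any library omitted, and 12 by DESeq2. Called list members numbered 89, with 56 from the KD libraries alone, 37 against a fold of 1.5, and 51 to 101 with 1 library omitted, a count chosen after seeing the data. Hp1bp3 had a log2 ratio of -0.12, with -0.28 to 0.0605 when 1 library was omitted and, in the fit, -0.30 to 0.0682, reversed without B6 KD 3. With 1 library omitted, list level differences lay between -1.34 and 1.19 for choroid plexus, -0.61 and 0.11 for meninges, -0.32 and 0.27 for ependyma and -0.20 and 0.026 for astrocytes. As a median over members the level difference was 0.0074 for ependyma and -0.15 for neurons, where the mean gave -0.07 and 0.13, and it was -0.68 for meninges and -0.44 for astrocytes, where the mean gave -0.26 and -0.09. The cause of these shifts was not tested.

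Of 107 named genes that were called, 73 kept their call with any 1 library omitted. Calls were lost for 29 without B6 KD 2, 29 without D2 KD 1, 26 without the library labelled D2 KD 3, 22 without B6 KD 1, 16 without D2 KD 2, 11 without B6 KD 3, and 1 to 9 without a Ctrl library. In settings with all 12 libraries or the 6 KD libraries none changed direction. No paired analysis was possible because each mouse has its own number and no number is shared between groups. Depth, 21787915 to 39420219 expected counts per KD library, limits the genes with few counts, such as Mgst2.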
